A study of Mus musculus with 10 samples.

Results

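Back skin taken 6h after a single dose of cyclophosphamide was compared with back skin taken just before the dose (0h). The comparison rests on 4 of the 10 libraries of the series, the 2 labelled 6h and the 2 labelled 0h, which were chosen by their time label alone. Both groups were full-thickness skin of male wild-type C57BL/6 mice aged 7 to 8 weeks. Their back hair had been stripped with wax to bring the follicles into anagen, the growth phase, and the 6h mice had received cyclophosphamide by intraperitoneal injection (150 mg/kg) when day 9 after waxing was reached. The other 6 libraries, 2 each from 12h, 24h and 48h, entered the same statistical fit and are used here to show what followed. No vehicle-injected mice are among the samples, and the time of day of sampling is not stated, so handling, hours since depilation and day rhythm cannot be told apart from the drug. Nothing in the labels says that a pair of libraries stems from different mice, so every p-value rests on library-to-library spread that could be technical.

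Cyclophosphamide is a prodrug that the liver turns into a mustard which crosslinks DNA. Crosslinks and the breaks that follow activate damage kinases and the transcription factor p53, which switches on genes for cell cycle arrest, repair and apoptosis, while genes for G2 and mitosis are shut down in arrested cells. The matrix of the anagen hair bulb is among the fastest dividing tissues of the body, and its damage by this drug is a standard model of hair loss from chemotherapy. Interleukin 1 beta is an early signal of tissue stress: it is made as a precursor, cut by caspase 1, and acts through its receptor and Myd88 on NF-kB, which in turn drives cytokines, chemokines and acute phase proteins.

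Levels are given as FPKM from the table the authors deposited, that is, sequenced fragments divided by transcript length and by the mapped fragments of the library. The summed FPKM of a library lay between 862653 and 978550, and the absolute depth is unknown from this unit. Low values gave a relative depth of 1 and 1.48 in 0h libraries 2 and 3 and of 1.22 and 1.16 in 6h libraries 2 and 3. The tissue matched its label. Krt14 of the epidermal and follicular base layer was at 2559 and 2159 FPKM at 0h and 2566 and 2614 FPKM at 6h, and the fat marker Adipoq, the muscle actin Acta1 and the melanocyte enzyme Dct were present in all 4 libraries. The granule genes of immature neutrophils Mpo, Ngp and Ltf were listed at 0 in all 4, and Elane of the same group at 0 to 0.547 FPKM.

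Of 13625 genes tested with limma on log2(FPKM + 1), 6 passed an adjusted p (Benjamini-Hochberg) under 0.05 at 6h against 0h, which is 0.044% of the genes. Of these 4 were higher (0.0294%) and 2 lower (0.0147%). In a fit that also held the library number the count was 99, but the numbers are not shown to pair the samples. The count of 6 became 35 in a fit of the 0h and 6h libraries alone and 1 to 14 when 1 library was left out. At an unadjusted p under 0.05 there were 892 genes higher (6.55%) and 779 lower (5.72%), and these shares are the background for the counts of list members below. Of the genes tested, 116 passed the filter of at least 1 FPKM in 2 libraries only with a 6h library counted, 19 of them among the higher ones, so counts of lists that hold such genes are also given without them (added after seeing the data). Both 6h libraries lay above both 0h libraries in 23.1% of genes and below them in 16.4%. That split depended on scaling, with 3151 genes above and 2240 below in the table's own scale, 2826 and 2710 once median-of-ratios scaling was applied, and 3974 and 1320 when the values were rescaled without hair genes (scalings of this count were added after seeing the data). The median difference over all genes was 0.04 on the log2(FPKM + 1) scale, in which all differences below are given. 67 genes had an adjusted p under 0.1.

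**Figure D1:**
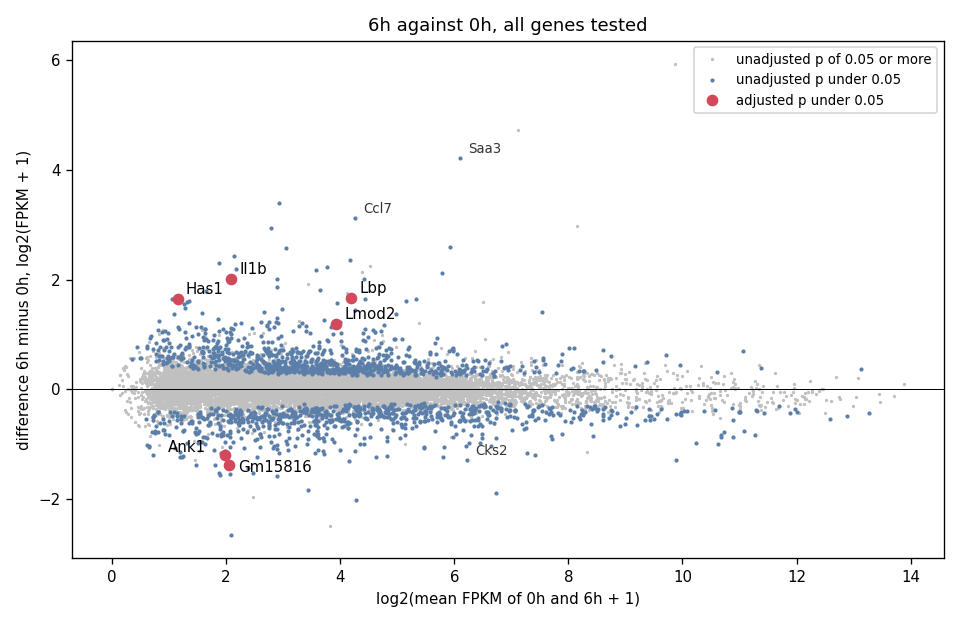
Difference between the 6h and 0h means on the log2(FPKM + 1) scale (vertical) against the mean level on the same scale (horizontal) for the 13625 genes tested, with 1 point per gene. The 6 genes past the adjusted threshold are named in large type and sit at log2 differences from -1.38 for Gm15816 to 2.0 for Il1b, while Saa3 at 4.21, Ccl7 at 3.13 and Cks2 at -1.29 did not pass.

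Il1b, which encodes interleukin 1 beta, had the smallest p of all genes. It was at 0.600 and 0.808 FPKM at 0h and 5.77 and 5.85 FPKM at 6h. Both 6h libraries stood above the other 8 libraries of the series, and the 2 nearly coincided. Il1b rose at 6h (log2 difference 2.0, SE 0.15, adjusted p = 0.00209, limma). By 12h it was at 1.88 and 2.27 FPKM, and at 24h and 48h it lay at 1.04 to 1.59 FPKM, still above 0h in every library. Il1b kept its call in all 20 alternative settings in which it was tested, with log2 differences from 0.92 to 2.89. It did not meet the alternative filter of a mean of at least 5 FPKM and was not tested there. The gene lies on chromosome 2 (mm10, 129364570 to 129371139, minus strand). The RefSeq sequence of the 250 bases before its start (GRCm38.p6, chr2:129371140-129371389, minus strand) is shown as the promoter of the gene with the clearest response. Capitals mark a match to TATAAA, whose first base lies 31 bases before the start.
Il1b promoter: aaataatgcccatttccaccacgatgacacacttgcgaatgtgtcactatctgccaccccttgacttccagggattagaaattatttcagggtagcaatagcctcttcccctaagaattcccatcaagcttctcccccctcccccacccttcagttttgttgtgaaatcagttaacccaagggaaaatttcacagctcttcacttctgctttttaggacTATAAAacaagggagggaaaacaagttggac
A TATAAA match on either strand was present in 8.29% of the 13073 promoter windows of tested genes. Each window runs from 250 bases before to 50 after a gene's start.

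Has1 encodes a hyaluronan synthase of the plasma membrane. It was listed at 0 in 0h library 2 and at 0.144 FPKM in 0h library 3, against 2.67 and 2.07 FPKM at 6h, and at the later times it was back at 0.0664 to 0.214 FPKM. Since no other library reached 1 FPKM, Has1 passed the filter on low values through the 6h libraries alone, and it kept its call with that filter omitted (adjusted p = 0.00393, limma). Has1 rose at 6h (log2 difference 1.65, SE 0.19, adjusted p = 0.0239, limma). Has1 lies on chromosome 17 (17843323 to 17855205, minus strand). The related synthase Has3 was at 1.80 and 2.94 FPKM at 0h and 1.81 and 2.25 FPKM at 6h, and Has2 was below the filter on low values, with 0.675 and 0.822 FPKM at 0h and 0.852 and 0.665 FPKM at 6h. Tnfaip6, which encodes a protein that binds hyaluronan in inflamed tissue, was at 2.0 and 1.52 FPKM at 0h and 4.04 and 5.79 FPKM at 6h (adjusted p = 0.272, limma). The hyaluronan receptor Cd44 was at 28.9 and 31.7 FPKM at 0h and 35.3 and 38.7 FPKM at 6h (adjusted p = 0.381, limma). Ugdh, which makes the sugar precursor of hyaluronan, was at 12.4 and 15.6 FPKM at 0h and 17.3 and 22.1 FPKM at 6h (adjusted p = 0.282, limma). Of 13 genes of hyaluronan synthesis, breakdown and binding tested, 4 were higher and 1 lower at an unadjusted p under 0.05, with a median difference of 0.19 (0.34 leaving out 0h library 3, 0.34 leaving out 6h library 2 and 0.12 leaving out 6h library 3). Without Has1 there were 3 of 12 higher and a median of 0.18.

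Lbp encodes the secreted protein that carries bacterial lipopolysaccharide to its receptor. It was at 7.40 and 8.03 FPKM at 0h and 23.5 and 29.9 FPKM at 6h, and both 6h libraries lay far above both 0h libraries. Lbp rose at 6h (log2 difference 1.66, SE 0.19, adjusted p = 0.0239, limma) and, unlike Il1b and Has1, was at 18.6 to 39.0 FPKM at the later times. It lies on chromosome 2 (158306493 to 158332852, plus strand). Several of its partners in lipopolysaccharide recognition had higher values without passing. Cd14, the co-receptor that takes lipopolysaccharide from Lbp, was at 2.51 and 3.57 FPKM at 0h and 7.09 and 9.83 FPKM at 6h (adjusted p = 0.143, limma), above all 8 other libraries. Ly96, which encodes the lipopolysaccharide-binding subunit MD-2 of the receptor, was at 3.77 and 5.37 FPKM at 0h and 7.78 and 7.13 FPKM at 6h (adjusted p = 0.344, limma). The receptor gene Tlr4 was at 0.575 and 0.547 FPKM at 0h and 1.49 and 1.27 FPKM at 6h (adjusted p = 0.361, limma). Ly86, a cofactor of a related receptor, was at 6.52 and 9.07 FPKM at 0h and 6.51 and 5.38 FPKM at 6h (adjusted p = 0.664, limma), with both 6h libraries below 0h. Of the 8 genes of this group tested (13 listed), 5 were higher and 0 lower at an unadjusted p under 0.05, and the median difference was 0.51.

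The other 3 genes past the threshold are genes of striated muscle or lie within one. Lmod2 encodes leiomodin 2, which nucleates actin filaments in sarcomeres. It was at 7.60 and 8.91 FPKM at 0h and 18.8 and 21.4 FPKM at 6h, above all 8 other libraries, and rose (log2 difference 1.19, SE 0.13, adjusted p = 0.0239, limma). It lies on chromosome 6 (24597762 to 24605414, plus strand). Ank1 encodes ankyrin 1, which ties membrane proteins to the spectrin skeleton of red cells and, as a short form, to the sarcoplasmic reticulum of muscle. Ank1 was at 4.34 and 4.65 FPKM at 0h and 1.32 and 1.45 FPKM at 6h. Both 6h libraries were below both 0h libraries, and Ank1 fell (log2 difference -1.20, SE 0.15, adjusted p = 0.0374, limma). The noncoding Gm15816 was at 4.21 and 5.87 FPKM at 0h and 1.19 and 1.41 FPKM at 6h and fell as well (log2 difference -1.38, SE 0.18, adjusted p = 0.0483, limma).

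Ank1 and Gm15816 may not be independent readings. In the GENCODE M21 annotation Ank1 spans chromosome 8 from 22974844 to 23150497 on the plus strand, and the antisense gene Gm15816 lies within its 3' part, from 23138794 to 23149585 on the minus strand. Of the 1688 exon bases of Gm15816, 862 (51.1%) are also exon bases of Ank1, and 4 of 17 annotated Ank1 transcripts start within or after the span of Gm15816. Whether the counting used strand is not stated in the sources used here, so whether the 2 genes share reads cannot be told.
In whole skin, more or fewer cells of a type and more or less RNA per cell cannot be told apart either, which bears on each gene that a minor cell type carries. Has1, Lbp, Lmod2, Ank1 and Gm15816 all missed the threshold without 0h library 2, 0h library 3, 6h library 3 or either 48h library, and Has1, Ank1 and Gm15816 also without 6h library 2, with adjusted p up to 0.253 for Has1, Lbp and Ank1. A pseudocount of 0.1 ended the calls of Has1, Ank1 and Gm15816, omitting the filter on low values those of Lbp, Lmod2, Ank1 and Gm15816, and rescaling without hair genes those of Ank1 and Gm15816. Rescaling without muscle and red blood cell genes also ended the call of Gm15816.

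**Figure D2:**
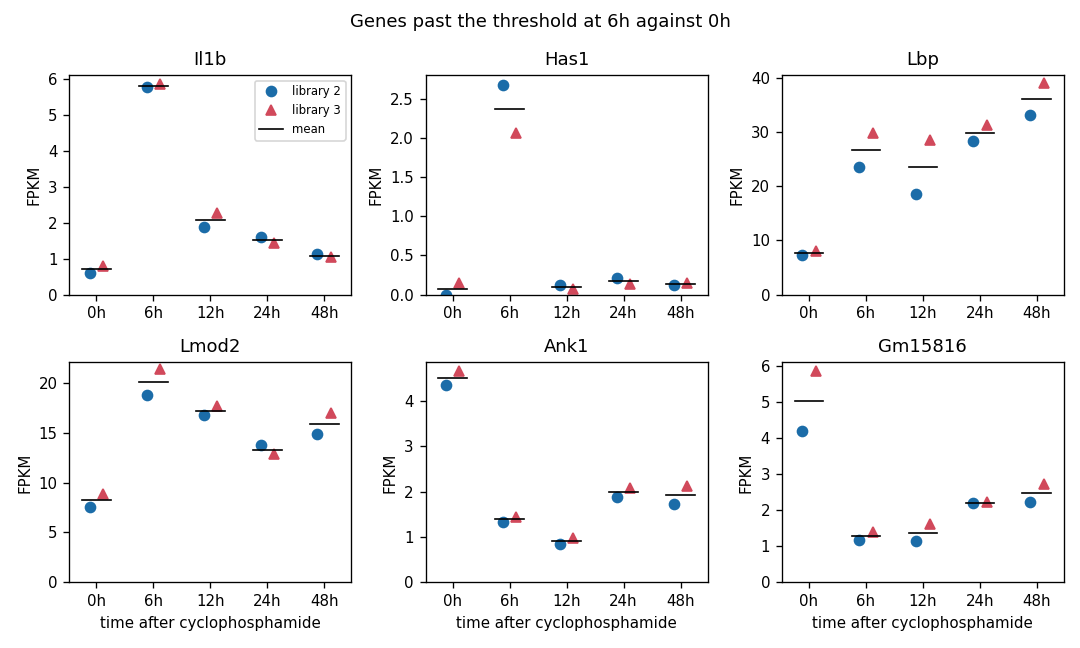
FPKM (vertical, from 0) of the 6 genes past the threshold in each of the 10 libraries by time after cyclophosphamide (horizontal). Circles are library 2, triangles library 3 and bars the mean of n = 2. Il1b and Has1 are highest at 6h, with Il1b still above 0h later, Lbp stays high, and Ank1 and Gm15816 are low from 6h on.

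The interleukin 1 family held further genes that were high at 6h. Of 21 family and inflammasome genes tested, 8 were higher and 0 lower at an unadjusted p under 0.05, with a median of 0.33 (0.17 leaving out 0h library 2 and 0.21 leaving out 6h library 3), and Il1b was the one that passed. Il33, an alarmin stored in the nucleus of barrier cells, was at 3.58 and 3.05 FPKM at 0h and 8.90 and 10.3 FPKM at 6h (adjusted p = 0.0932, limma). Its receptor gene Il1rl1 was at 0.163 and 0.233 FPKM at 0h and 1.53 and 1.43 FPKM at 6h (adjusted p = 0.0932, limma). Both 6h libraries of both genes lay above all 8 others, and Il1rl1 was later at 0.0987 to 0.482 FPKM. Il1rl1 passed the filter on low values through the 6h libraries alone, so its place above the others follows from that filter. Without Il1rl1 the list had 7 of 20 higher and a median of 0.31. Casp4, an inflammatory caspase that senses intracellular lipopolysaccharide, was at 2.23 and 2.86 FPKM at 0h and 4.56 and 5.71 FPKM at 6h (adjusted p = 0.197, limma), also above all 8 others. The adaptor Myd88 was at 20.2 and 19.9 FPKM at 0h and 27.4 and 36.2 FPKM at 6h (adjusted p = 0.222, limma). Irak3, a brake on the same pathway, was at 3.23 and 3.25 FPKM at 0h and 4.79 and 6.79 FPKM at 6h (adjusted p = 0.236, limma). The receptor antagonist Il1rn was at 22.3 and 23.9 FPKM at 0h and 26.4 and 34.2 FPKM at 6h. The sister cytokine Il1a was at 4.67 and 6.28 FPKM at 0h and 7.86 and 6.31 FPKM at 6h, and Casp1, the caspase that matures interleukin 1 beta, was at 9.60 and 11.6 FPKM at 0h and 11.5 and 15.1 FPKM at 6h, where the groups overlapped. The sensor Nlrp3 was below the filter, at 0.0281 and 0.0377 FPKM at 0h and 0.154 and 0.239 FPKM at 6h.

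Of 38 cytokines and chemokines listed 25 passed the filter, and of these 13 were higher and 0 lower at an unadjusted p under 0.05 (median 0.46) and 0 passed the adjusted threshold. Il6, Cxcl1 and Cxcl9 passed the filter only with a 6h library counted, and without them there were 10 of 22 higher and a median of 0.41. Ccl7, which attracts monocytes, was at 2.50 and 3.35 FPKM at 0h and 28.5 and 38.3 FPKM at 6h (log2 difference 3.13, SE 0.46, adjusted p = 0.0757, limma). Both 6h libraries were above all 8 others, although 48h library 3 reached 28.0 FPKM. Il6, the main inducer of acute phase proteins, was listed at 0.0966 and 0 FPKM at 0h and at 1.64 and 1.32 FPKM at 6h (adjusted p = 0.089, limma), against 0 to 0.450 FPKM later. Ccl2, the leading monocyte attractant, was at 1.09 and 2.95 FPKM at 0h and 8.20 and 13.6 FPKM at 6h (adjusted p = 0.121, limma). Ccl9 was at 3.92 and 5.04 FPKM at 0h and 13.9 and 23.5 FPKM at 6h (adjusted p = 0.153, limma). The B cell attractant Cxcl13 was at 0.168 and 0.966 FPKM at 0h and 3.51 and 9.52 FPKM at 6h (adjusted p = 0.153, limma) and Ccl12 at 1.86 and 5.05 FPKM at 0h and 14.1 and 22.6 FPKM at 6h (adjusted p = 0.213, limma). In all of these 6h library 3 was above library 2 except for Il6. The neutrophil attractant Cxcl2, below the filter, was listed at 0 in both 0h libraries and at 0.570 and 2.48 FPKM at 6h. Tnf went the other way, at 1.60 and 1.62 FPKM at 0h and 0.759 and 1.48 FPKM at 6h.

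The promoters of this group were searched for the NF-kB consensus, on both strands. Of 22 windows of 20 genes of the list, 8 held a match (36.4%), against 10.6% of the windows of all tested genes. Of the 8 genes with a match 4 were higher at an unadjusted p under 0.05, and of the 12 without a match 6 were. Their median differences were 0.81 and 0.38, which were not tested against each other. Il6 and Cxcl1, at 1.24 and 1.78, are among the genes with a match and passed the filter only with a 6h library counted. The other matched genes were Ccl9 at 1.81, Cxcl10 at 1.16, Ccl20 at 0.46, Csf1 at 0.41, Lif at 0.29 and Ccl27a at -0.08. The medians were not recomputed without Il6 and Cxcl1. The 4 genes below had both a match and an unadjusted p under 0.05 at 6h. For these, 30 bases around a match are shown from RefSeq (GRCm38.p6), with that match in capitals.
Il6, chr5:30013060-30013089, plus strand: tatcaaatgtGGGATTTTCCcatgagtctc
Cxcl1, chr5:90891164-90891193, plus strand: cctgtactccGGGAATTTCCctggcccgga
Cxcl10, chr5:92348974-92349003, minus strand: tcggtttacaGGGGACTTCCctcgggttgc
Ccl9, chr11:83578652-83578681, minus strand: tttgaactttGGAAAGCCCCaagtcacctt
The match shown lies 44 bases before the start in Il6, 71 in Cxcl1, 104 in Cxcl10 and 35 in Ccl9. Further matches lie 70 bases before the start in Cxcl1 and 159 and 103 in Cxcl10. Cxcl1, a neutrophil attractant, was at 0.519 and 0.181 FPKM at 0h and 5.67 and 2.19 FPKM at 6h. Cxcl10, an attractant of T cells, was at 4.30 and 1.99 FPKM at 0h and 6.61 and 9.44 FPKM at 6h. No match was found in the Il1b window, which says only that these letters are not within it.

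The acute phase group had the highest median of the 46 lists. Of 21 acute phase and antimicrobial genes tested, 15 were higher and 0 lower at an unadjusted p under 0.05, 18 had both 6h libraries above both 0h libraries, and the median was 0.87. Of 30 listed, 21 passed the filter, Orm2 only with a 6h library counted, and without it there were 14 of 20 higher and a median of 0.82. Serpina3n, a protease inhibitor of the acute phase, was at 14.7 and 24.0 FPKM at 0h and 61.0 and 117 FPKM at 6h (adjusted p = 0.0932, limma). Saa3, the serum amyloid A form made outside the liver, was at 3.53 and 4.86 FPKM at 0h and 40.2 and 221 FPKM at 6h (adjusted p = 0.103, limma). Saa2 was listed at 0 and 0.634 FPKM at 0h and at 9.60 and 16.0 FPKM at 6h (adjusted p = 0.127, limma), and Saa1 was at 0.612 and 0.209 FPKM at 0h and 5.08 and 17.7 FPKM at 6h (adjusted p = 0.233, limma). The serum amyloid genes are close copies of each other, so their values may share reads. Lcn2, which withholds iron from bacteria, was at 3.32 and 3.57 FPKM at 0h and 12.7 and 31.0 FPKM at 6h (adjusted p = 0.213, limma). The pentraxin Ptx3 was at 0.904 and 1.48 FPKM at 0h and 7.19 and 19.5 FPKM at 6h (adjusted p = 0.223, limma). In these genes both 6h libraries were above 0h, and library 3 was above library 2, by the most in Saa3. The antimicrobial peptide Defb4 was listed at 0 and 0.478 FPKM at 0h and at 4.13 and 6.08 FPKM at 6h (adjusted p = 0.239, limma), and Prg4, a lubricating glycoprotein, was at 0.172 and 0.585 FPKM at 0h and 5.15 and 7.74 FPKM at 6h (adjusted p = 0.121, limma).

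Several neutrophil markers had higher values as well. Of 25 neutrophil genes listed 11 passed the filter on low values, and of these 6 were higher and 0 lower at an unadjusted p under 0.05, with a median of 0.78. The summed level of the 23 listed genes with values, tested or not, was 123 and 168 FPKM at 0h and 232 and 229 FPKM at 6h. Csf3r and Cxcr2 passed the filter only with a 6h library counted, and without them there were 4 of 9 higher and a median of 0.52. Red blood cell RNA differed between the same libraries: the 5 haemoglobin rows, which share reads, summed to 194.4 and 255 FPKM at 0h and 1288 and 997 FPKM at 6h, and 5 of 10 red blood cell genes tested (21 listed) were higher and 0 lower at an unadjusted p under 0.05 (median 0.52, 0.34 leaving out 0h library 2). S100a9, an alarm protein of neutrophils that stressed keratinocytes also make, was at 8.22 and 6.74 FPKM at 0h and 38.1 and 28.7 FPKM at 6h (log2 difference 2.01, SE 0.33, adjusted p = 0.089, limma). The growth factor receptor Csf3r was at 0.310 and 0.275 FPKM at 0h and 1.21 and 2.12 FPKM at 6h (adjusted p = 0.144, limma), above all 8 other libraries. Since Csf3r passed the filter only with a 6h library counted, its place above the others largely follows from that filter. The resistin-like Retnlg was listed at 0 and 0.464 FPKM at 0h and at 1.66 and 4.06 FPKM at 6h (adjusted p = 0.207, limma). Clec4d, a lectin receptor of myeloid cells, was at 0.249 and 0.0604 FPKM at 0h and 1.26 and 4.32 FPKM at 6h (adjusted p = 0.213, limma). Of 25 macrophage and dendritic cell genes, 6 were higher and 0 lower, among them Fcgr1 at 1.12 and 1.42 FPKM at 0h and 2.50 and 4.75 FPKM at 6h and the monocyte receptor Ccr2 at 1.61 and 1.91 FPKM at 0h and 2.68 and 3.65 FPKM at 6h, while the summed level of the list was 1126 and 1316 FPKM at 0h against 1096 and 1242 FPKM at 6h. The part of myeloid cell number and of blood in the skin in the cytokine and acute phase values was not tested. Among NF-kB targets and feedback genes 5 of 25 were higher and 0 lower at an unadjusted p under 0.05, led by the adhesion molecule Icam1 at 6.98 and 5.57 FPKM at 0h and 10.9 and 17.2 FPKM at 6h (adjusted p = 0.136, limma). Of 29 interferon response genes 6 were higher and 0 lower, led by the GTPase Gbp2 at 2.81 and 4.37 FPKM at 0h and 8.71 and 10.3 FPKM at 6h (adjusted p = 0.089, limma).

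**Figure D3:**
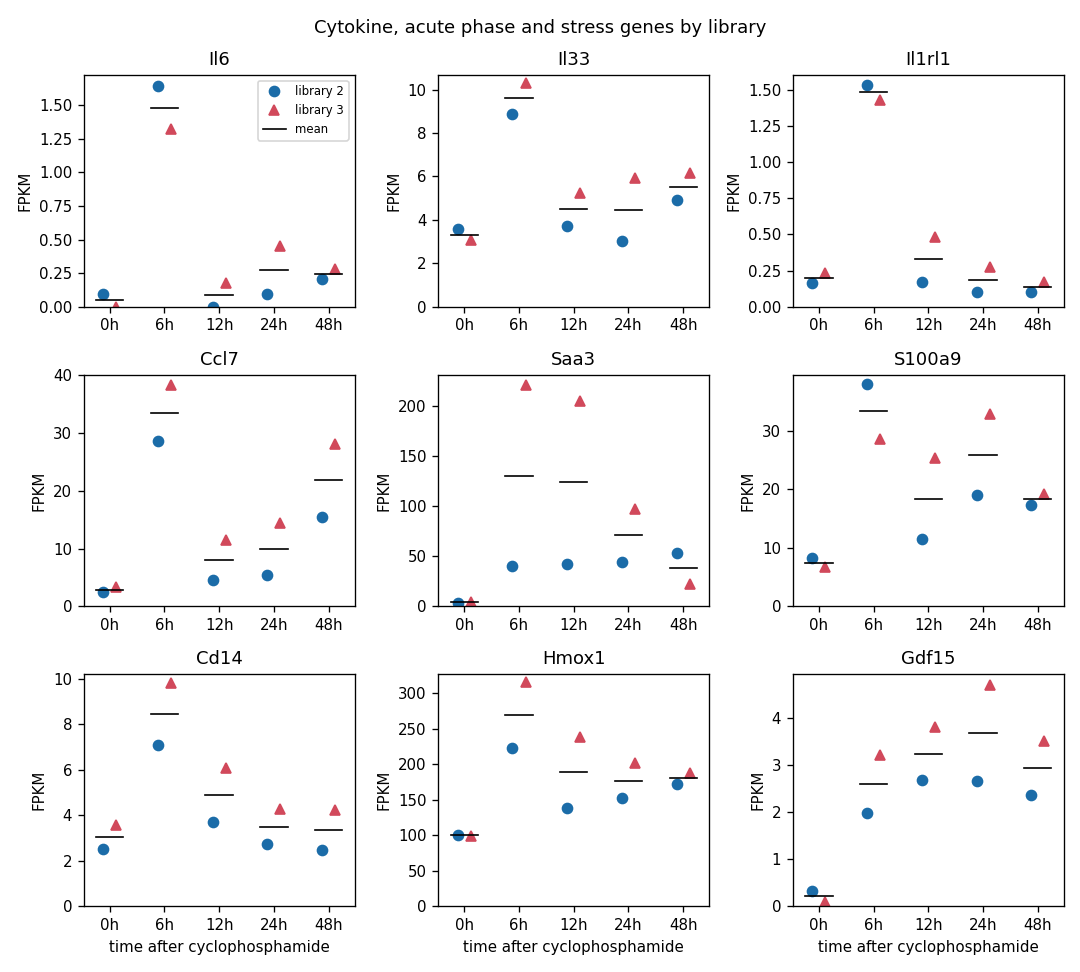
FPKM (vertical, from 0) of 9 cytokine, acute phase and stress genes in each library by time after cyclophosphamide (horizontal), with circles for library 2, triangles for library 3 and bars for the mean of n = 2. Il6, Il33, Il1rl1, Ccl7 and Cd14 have both 6h libraries above every other library, whereas Saa3 differs widely between the 6h libraries and Gdf15 stays high. Il6 and Il1rl1 passed the filter on low values through the 6h libraries alone, so for them this follows from that filter.

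Many p53 target genes were higher. Of 49 tested, 25 were higher and 3 lower at an unadjusted p under 0.05, 35 had both 6h libraries above both 0h libraries, and the median was 0.33, while 0 passed the adjusted threshold (limma). Trp53inp1, which promotes p53-dependent apoptosis, was at 16.1 and 19.5 FPKM at 0h and 32.3 and 33.1 FPKM at 6h (log2 difference 0.85, SE 0.13, adjusted p = 0.0785, limma). Btg2, an antiproliferative factor, was at 20.5 and 22.2 FPKM at 0h and 34.9 and 37.5 FPKM at 6h (adjusted p = 0.0882, limma). Gdf15, a secreted stress hormone, was at 0.331 and 0.0984 FPKM at 0h and 1.99 and 3.21 FPKM at 6h (adjusted p = 0.089, limma). All 3 had both 6h libraries above 0h, and they remained at 26.9 to 33.2, 32.3 to 41.1 and 2.36 to 4.71 FPKM at the later times. Eda2r, a death receptor of the ectodysplasin family, was at 0.738 and 1.06 FPKM at 0h and 2.64 and 2.94 FPKM at 6h (adjusted p = 0.093, limma). Pmaip1, which encodes the killer protein Noxa, was at 1.86 and 3.65 FPKM at 0h and 7.54 and 7.47 FPKM at 6h (adjusted p = 0.0932, limma). Dcxr, a carbonyl reductase, was at 35.8 and 35.1 FPKM at 0h and 56.8 and 58.2 FPKM at 6h (adjusted p = 0.089, limma). Polk, a polymerase that copies past bulky lesions, was at 1.59 and 1.57 FPKM at 0h and 3.13 and 3.81 FPKM at 6h (adjusted p = 0.138, limma), and the cell surface death receptor Fas was at 3.26 and 2.64 FPKM at 0h and 6.02 and 5.65 FPKM at 6h (adjusted p = 0.269, limma).

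The classical members Cdkn1a, Mdm2 and Bax had differences of 0.52, 0.53 and 0.14. The cell cycle inhibitor Cdkn1a was already at 191 and 189.8 FPKM at 0h and was at 257 and 289 FPKM at 6h (adjusted p = 0.15, limma), and Mdm2, the ubiquitin ligase that degrades p53, was at 13.5 and 14.9 FPKM at 0h and 19.8 and 22.1 FPKM at 6h (adjusted p = 0.147, limma). Bax, a pore former of mitochondrial apoptosis, was at 175 and 153 FPKM at 0h and 180.3 and 179.8 FPKM at 6h (adjusted p = 0.672, limma). Trp53 itself was at 38.0 and 34.6 FPKM at 0h and 31.3 and 46.1 FPKM at 6h, where the groups overlapped. Of 20 genes for p53, its regulators and damage kinases, 0 were higher and 1 was lower at an unadjusted p under 0.05, namely the histone variant H2afx at 114 and 83.8 FPKM at 0h and 61.5 and 60.7 FPKM at 6h (adjusted p = 0.197, limma). In the Bcl2 family 6 of 16 were higher and 1 lower (5 of 15 and 1 without Bcl2a1d, which passed the filter only with a 6h library counted), including the p53-inducible killer Bbc3 at 8.69 and 8.40 FPKM at 0h and 12.3 and 21.8 FPKM at 6h and Bcl2l11, which encodes Bim, at 1.88 and 1.84 FPKM at 0h and 3.0 and 3.10 FPKM at 6h. The p53 consensus decamer was found in 14 of 56 promoter windows of 39 target genes (25%), against 7.04% of the windows of tested genes. A match in each of 3 classical targets is shown, in capitals within 30 bases of RefSeq sequence (GRCm38.p6).
Cdkn1a, chr17:29090918-29090947, plus strand: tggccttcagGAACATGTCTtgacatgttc
Mdm2, chr10:117710925-117710954, minus strand: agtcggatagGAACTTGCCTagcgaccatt
Bax, chr7:45467080-45467109, minus strand: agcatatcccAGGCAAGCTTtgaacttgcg
The matches shown begin 51, 186 and 201 bases before the start of Cdkn1a, Mdm2 and Bax, and Cdkn1a holds another 73 bases before it. The median difference of the 13 genes with a match was 0.36 and of the 26 without 0.33.

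Many genes of G2 and mitosis were lower. Of 45 tested, 0 were higher and 24 lower at an unadjusted p under 0.05, and 36 had both 6h libraries below both 0h libraries, with a median of -0.54 (0 past the adjusted threshold, limma). Cks2, a subunit of cyclin-dependent kinases, was at 107 and 102 FPKM at 0h and 49.4 and 36.0 FPKM at 6h (log2 difference -1.29, SE 0.19, adjusted p = 0.0757, limma). Cdca8, which encodes borealin of the chromosome passenger complex, was at 28.5 and 23.8 FPKM at 0h and 12.5 and 12.5 FPKM at 6h (adjusted p = 0.0785, limma). Cdc25b, a phosphatase that starts mitosis, was at 15.9 and 13.3 FPKM at 0h and 7.34 and 8.07 FPKM at 6h (adjusted p = 0.121, limma). The mitotic kinase Plk1 was at 20.02 and 13.9 FPKM at 0h and 7.01 and 7.13 FPKM at 6h (adjusted p = 0.144, limma), the centromeric histone Cenpa at 39.6 and 32.8 FPKM at 0h and 21.0 and 15.9 FPKM at 6h (adjusted p = 0.213, limma) and cyclin B2, Ccnb2, at 27.9 and 29.5 FPKM at 0h and 16.7 and 14.0 FPKM at 6h (adjusted p = 0.222, limma). The proliferation marker Mki67 was at 15.8 and 19.5 FPKM at 0h and 12.5 and 11.2 FPKM at 6h (adjusted p = 0.349, limma). In all 7 genes the groups did not overlap. Relative to 0h, the list's median was -0.77 at 12h, -0.69 at 24h and 0.11 at 48h, so the group was near its starting level at 48h.

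The cell cycle homology region (CHR) is an element through which the DREAM complex represses G2 and mitosis genes. Its core, a TTTGAA match on either strand, stood in 29 of 41 promoter windows of 39 list genes (70.7%), against 12.4% of the windows of tested genes. A match is shown for 4 genes, in capitals within 30 bases of RefSeq sequence (GRCm38.p6).
Plk1, chr7:122159453-122159482, plus strand: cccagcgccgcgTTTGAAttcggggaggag
Cenpa, chr5:30666890-30666919, plus strand: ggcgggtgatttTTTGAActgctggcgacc
Ccnb2, chr9:70421533-70421562, minus strand: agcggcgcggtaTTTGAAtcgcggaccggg
Mki67, chr7:135716460-135716489, minus strand: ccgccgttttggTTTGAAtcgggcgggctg
The match shown begins 30, 16 and 4 bases after the start in Plk1, Cenpa and Ccnb2 and 98 bases before it in Mki67. Another match begins 167 bases before the start in Ccnb2 and 116 in Mki67. The median difference was -0.53 in the 27 genes with a match and -0.57 in the 12 without, which were not tested against each other. Cks2, the member with the smallest p, had no match in its window.
Few S phase genes differed. Of 46 tested, 2 were higher and 1 lower at an unadjusted p under 0.05, both counts below the background. The median was 0.13 (0.05 leaving out 0h library 2 and 0.03 leaving out 6h library 2). Both 6h libraries lay above 0h in 28.3%, against 23.1% of all genes, and below 0h in 4.35%, against 16.4% of all genes. Chaf1b, which loads histones on new DNA, was at 6.78 and 6.72 FPKM at 0h and 12.6 and 10.6 FPKM at 6h (adjusted p = 0.0932, limma). Ccne2, the cyclin that starts replication, was at 0.557 and 1.11 FPKM at 0h and 2.35 and 1.68 FPKM at 6h (adjusted p = 0.274, limma). Regulators of the hair matrix, the compartment that holds many dividing cells of anagen skin, were at a summed 1053 and 1049.9 FPKM at 0h and 989.8 and 979 FPKM at 6h, and the part of matrix cell number in the mitotic values was not tested.

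**Figure D4:**
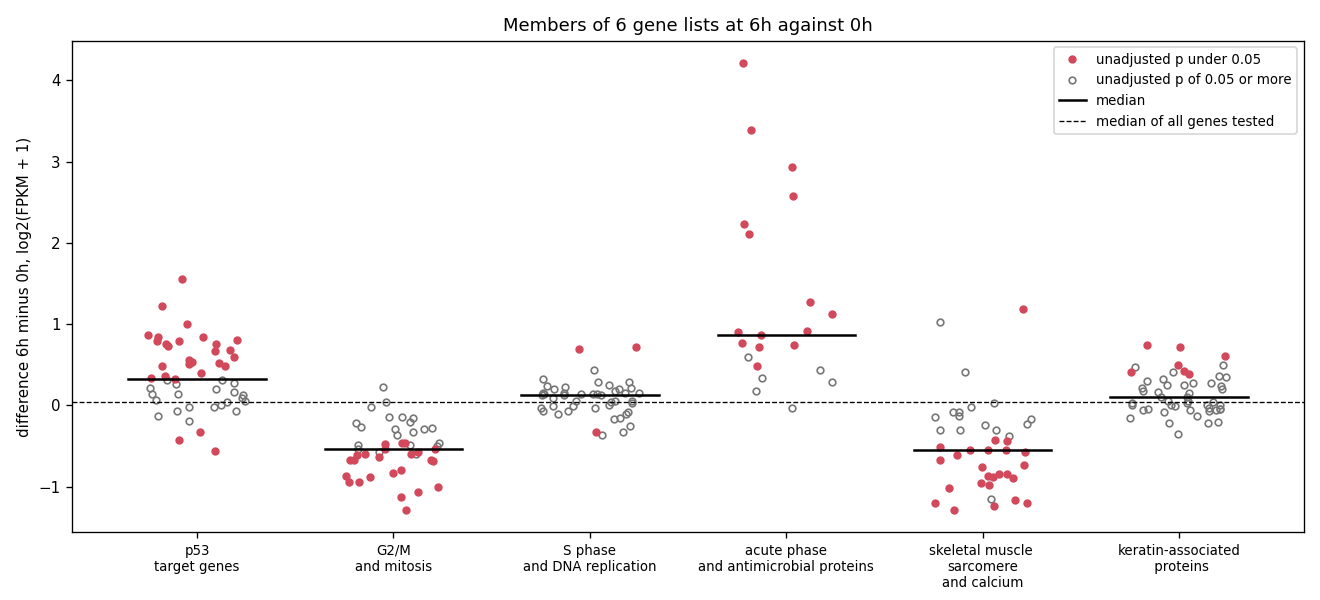
Difference between the 6h and 0h means on the log2(FPKM + 1) scale (vertical) for each tested member of 6 gene lists (horizontal, spread sideways for sight only). Filled points have an unadjusted p under 0.05, bars are list medians and the dashed line is the median of all genes tested. G2 and mitosis genes and muscle genes centre near -0.54, p53 targets at 0.33 and acute phase genes at 0.87, while keratin-associated proteins lie close to the dashed line.

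Skeletal muscle genes, carried in full-thickness skin by the panniculus carnosus sheet below the fat, were in many cases lower. Of 41 sarcomere and calcium handling genes tested, 1 was higher and 24 lower at an unadjusted p under 0.05, and the median was -0.54. The summed level of all 44 listed genes, tested or not, was 23027 and 20949.8 FPKM at 0h and 12157 and 13038 FPKM at 6h, so the groups were well apart. Myl1, a fast myosin light chain, was at 1666 and 1553 FPKM at 0h and 818 and 812 FPKM at 6h (log2 difference -0.98, SE 0.16, adjusted p = 0.089, limma). The fast troponin Tnni2 was at 2192 and 2003 FPKM at 0h and 1149 and 1192 FPKM at 6h (adjusted p = 0.089, limma). Jph2, which holds the sarcoplasmic reticulum to the T tubules, was at 28.2 and 38.6 FPKM at 0h and 10.4 and 17.3 FPKM at 6h (adjusted p = 0.0947, limma). The calcium store protein Casq1 was at 235 and 236 FPKM at 0h and 83.6 and 125 FPKM at 6h (adjusted p = 0.0985, limma). The skeletal actin Acta1 was at 3031 and 2422 FPKM at 0h and 1391 and 1839 FPKM at 6h (adjusted p = 0.223, limma), and the calcium buffer Pvalb at 1252 and 1396 FPKM at 0h and 418 and 702 FPKM at 6h (adjusted p = 0.16, limma). Of the list, Lmod2 alone was higher at an unadjusted p under 0.05. Actc1, the cardiac actin that skeletal muscle also expresses, was at 27.2 and 21.5 FPKM at 0h and 8.44 and 9.90 FPKM at 6h (adjusted p = 0.233, limma). The small heat shock protein Hspb3 was at 6.57 and 6.65 FPKM at 0h and 2.27 and 1.41 FPKM at 6h (adjusted p = 0.152, limma), and Cacng6, a calcium channel subunit of muscle, was at 7.12 and 6.48 FPKM at 0h and 0.873 and 4.79 FPKM at 6h (adjusted p = 0.269, limma).

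Among myogenic and muscle stress genes more were higher than lower. Of 26 tested, 8 were higher and 1 lower at an unadjusted p under 0.05 (median 0.32, 0.12 leaving out 6h library 3). The list is not of muscle alone: Cdkn1a, one of the higher genes, is also counted among the p53 target genes above. The ubiquitin ligase of muscle wasting Fbxo32 was at 6.39 and 6.29 FPKM at 0h and 10.1 and 11.5 FPKM at 6h (adjusted p = 0.127, limma), and its partner Trim63 at 11.3 and 13.5 FPKM at 0h and 13.8 and 118 FPKM at 6h (adjusted p = 0.393, limma), a value set by 1 library. The stretch-responsive Ankrd1 was at 1.15 and 0.737 FPKM at 0h and 2.32 and 4.21 FPKM at 6h (adjusted p = 0.162, limma), and the myogenic factor Myf6 at 9.04 and 6.78 FPKM at 0h and 15.4 and 21.9 FPKM at 6h (adjusted p = 0.236, limma). Mstn, which encodes the growth inhibitor myostatin, was the lower one, at 7.43 and 11.7 FPKM at 0h and 3.71 and 3.52 FPKM at 6h (adjusted p = 0.0932, limma). Rrad, a small GTPase of muscle, was at 4.11 and 1.70 FPKM at 0h and 5.19 and 57.1 FPKM at 6h (adjusted p = 0.385, limma), again with library 3 far above library 2. How much of the lower sarcomere values came from a smaller share of muscle in the 6h samples was not tested.

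Most hair follicle genes had small differences at 6h. Of 14 hair shaft keratins 0 were higher and 0 lower at an unadjusted p under 0.05 (median 0.07, 0.00038 leaving out 0h library 2 and -0.01 leaving out 6h library 3). Krt35 of the hair cortex and cuticle was at 978 and 942 FPKM at 0h and 903 and 937 FPKM at 6h (adjusted p = 0.884, limma). Of 51 keratin-associated proteins 7 were higher and 0 lower (median 0.10, -0.03 leaving out 0h library 2 and 0.23 leaving out 0h library 3), led by Krtap4-13 at 36.0 and 57.6 FPKM at 0h and 68.2 and 84.6 FPKM at 6h (adjusted p = 0.214, limma), and their summed level was 94390.2 and 110488 FPKM at 0h and 110263 and 99434 FPKM at 6h. Members of this family are close copies and may share reads. Of 18 inner root sheath and companion layer genes 2 were higher and 0 lower, among them Krt71 at 7922 and 7612 FPKM at 0h and 9997 and 10111 FPKM at 6h (adjusted p = 0.394, limma).
Signalling lists that keep the matrix growing had medians close to 0. Of 35 Wnt pathway genes 0 were higher and 2 lower, and of 16 Hedgehog genes 0 were higher and 0 lower at an unadjusted p under 0.05. Their medians were -0.01 and -0.06, and both turn positive when values are rescaled without hair genes or without muscle and red blood cell genes. In these 2 settings the median over all genes also rises, from 0.04 to 0.13 and 0.11. The Wnt medians were then 0.07 and 0.04 and the Hedgehog medians 0.04 and 0.01, below that of all genes. Shh, the growth signal of the matrix, was at 7.08 and 5.35 FPKM at 0h and 5.50 and 5.01 FPKM at 6h (adjusted p = 0.755, limma) and 1.29 to 3.41 FPKM at the later times. Lef1, a transcription factor of the precortex, was at 23.5 and 22.2 FPKM at 0h and 17.7 and 20.4 FPKM at 6h (adjusted p = 0.538, limma) and reached 6.47 and 5.48 FPKM at 48h. Sox21, needed in the hair shaft cuticle, was the lower gene of 22 matrix and precortex regulators, at 28.2 and 25.9 FPKM at 0h and 19.6 and 22.2 FPKM at 6h (adjusted p = 0.373, limma). The melanocyte enzyme Dct was at 90.5 and 110.4 FPKM at 0h and 131 and 120.1 FPKM at 6h (adjusted p = 0.421, limma).

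In several stress and rhythm lists more genes were higher than lower, and 0 passed the adjusted threshold (limma; counts below are at an unadjusted p under 0.05). Hmox1, the haem oxygenase of the NRF2 programme, was at 101 and 98.7 FPKM at 0h and 223 and 315 FPKM at 6h (log2 difference 1.40, SE 0.25, adjusted p = 0.093, limma), and its regulator Nfe2l2 at 19.97 and 20.4 FPKM at 0h and 26.6 and 27.9 FPKM at 6h (adjusted p = 0.182, limma). Of 25 NRF2 and glutathione genes 7 were higher and 0 lower at an unadjusted p under 0.05 (median 0.23, 0.36 leaving out 6h library 2). Of 15 aldehyde dehydrogenases 3 were higher and 0 lower, and of 31 genes of the unfolded protein, ATF4 and heat shock responses 3 were higher and 1 lower (median 0.0076). Of 18 clock genes 9 were higher and 1 lower (median 0.37, 0.24 leaving out 6h library 3). Per2, a repressor of the clock, was at 1.17 and 1.40 FPKM at 0h and 2.09 and 3.37 FPKM at 6h (adjusted p = 0.267, limma), and Nr1d1, which encodes REV-ERB alpha, was the lower one, at 17.4 and 13.9 FPKM at 0h and 8.90 and 11.6 FPKM at 6h (adjusted p = 0.245, limma). Clock genes change with the hour, which is not stated for these samples, so the drug and the time of day cannot be told apart for them. Of 23 glucocorticoid-responsive genes 7 were higher and 1 lower (median 0.39, 0.14 leaving out 0h library 2, 0.59 leaving out 0h library 3 and 0.59 leaving out 6h library 2). Sgk1, a kinase that glucocorticoids induce, was at 43.0 and 45.9 FPKM at 0h and 67.1 and 79.4 FPKM at 6h (adjusted p = 0.216, limma), and Cebpb was the lower one, at 315 and 279.6 FPKM at 0h and 124 and 225 FPKM at 6h (adjusted p = 0.214, limma). The leucine zipper Tsc22d3 was at 24.5 and 52.2 FPKM at 0h and 48.9 and 56.6 FPKM at 6h, where the groups overlapped. Of 22 immediate-early genes 6 were higher and 0 lower, but the list's median was -0.04 in 6h library 2 and 0.38 in library 3. Fos was at 4.76 and 4.98 FPKM at 0h and 7.99 and 9.28 FPKM at 6h (adjusted p = 0.358, limma), and Nr4a1 at 10.3 and 10.8 FPKM at 0h and 6.39 and 34.7 FPKM at 6h (adjusted p = 0.729, limma).

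Values for other cell types and gene groups were mixed. The summed haemoglobin rows, higher at 6h as given above, ranged from 9.97 to 934 FPKM in libraries of the later times. Of 18 sebaceous gland genes 6 were higher and 0 lower at an unadjusted p under 0.05 (median 0.33), such as the fatty acyl reductase Far2 at 3.64 and 6.65 FPKM at 0h and 12.5 and 12.0 FPKM at 6h (adjusted p = 0.226, limma). Of 28 epidermal differentiation and stress genes 7 were higher and 1 lower, with the stress keratin Krt6a at 212 and 195 FPKM at 0h and 332 and 357 FPKM at 6h (adjusted p = 0.209, limma) and loricrin, Lor, of the cornified envelope at 2519 and 1767 FPKM at 0h and 1238 and 1226 FPKM at 6h (adjusted p = 0.264, limma). Adipoq was at 65.2 and 110.0 FPKM at 0h and 44.1 and 74.0 FPKM at 6h, and of 21 adipocyte genes 1 was higher and 1 lower. The collagen gene Col1a1 was at 367 and 333 FPKM at 0h and 375 and 449 FPKM at 6h. Ribosomal protein genes were lower in 11 and higher in 0 of 57 (median -0.20), and nuclear genes of oxidative phosphorylation in 10 and 0 of 45 (median -0.24). In both lists 6h library 3 carried most of the difference, with medians of -0.35 and -0.44 against -0.06 and -0.07 in library 2. Among single genes with large lower values were Inmt, an indolethylamine methyltransferase, at 14.7 and 17.0 FPKM at 0h and 4.37 and 3.08 FPKM at 6h (adjusted p = 0.121, limma), the histone gene Hist1h3c at 4.45 and 5.97 FPKM at 0h and 0.751 and 1.53 FPKM at 6h (adjusted p = 0.103, limma) and the noncoding Hotairm1 at 13.4 and 48.7 FPKM at 0h and 4.32 and 7.14 FPKM at 6h (adjusted p = 0.228, limma). Mafa, Riiad1, Erdr1 and Samd1 were also among the 12 largest lower differences, with adjusted p from 0.111 to 0.303 (limma).

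**Figure D5:**
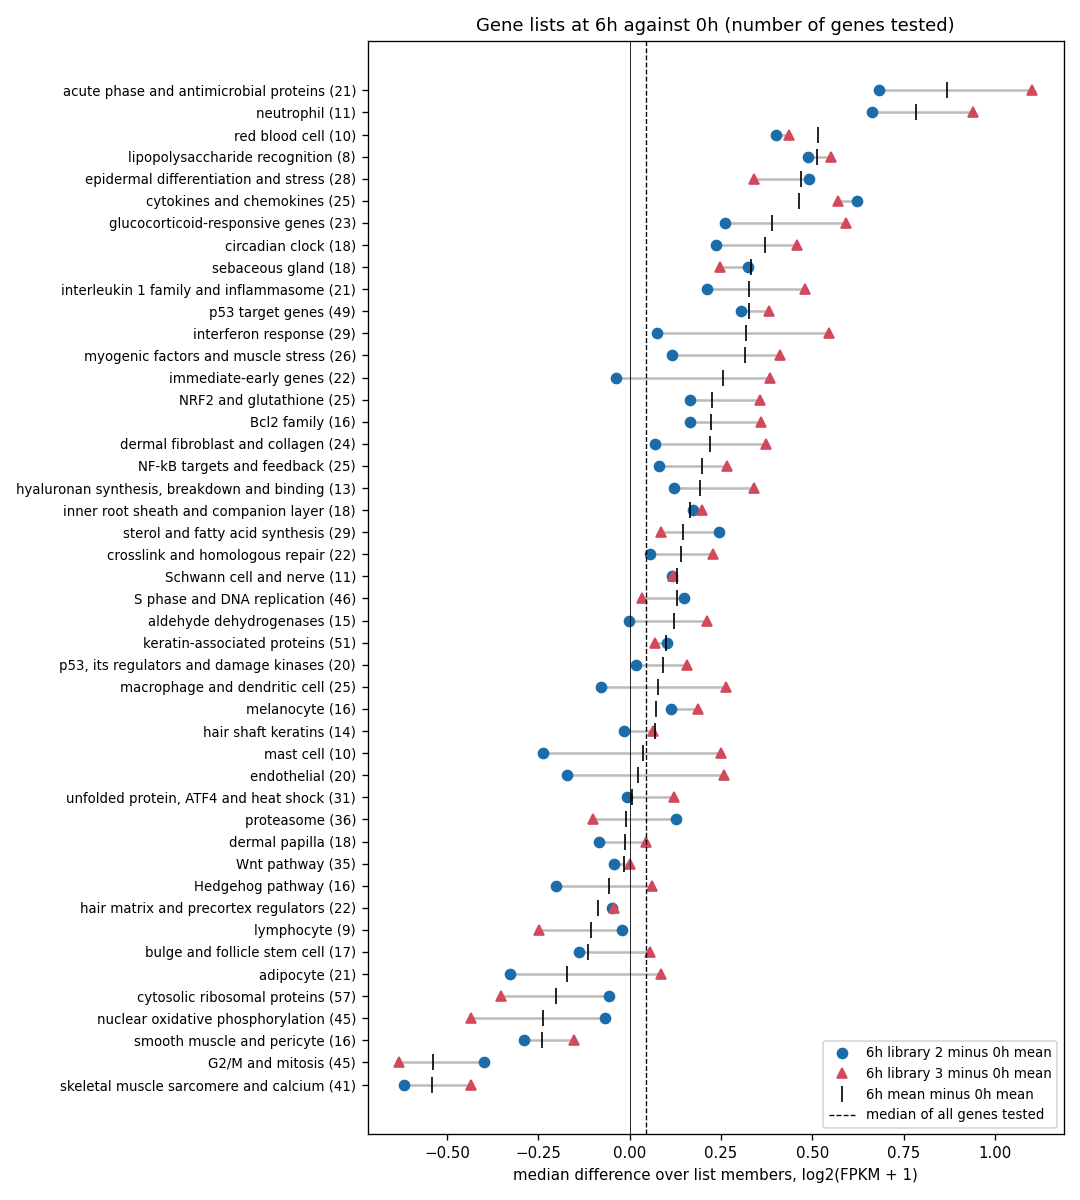
Median difference from 0h on the log2(FPKM + 1) scale (horizontal) over the tested members of each of 46 gene lists (vertical, number tested in brackets). Circles are 6h library 2, triangles 6h library 3, both against the 0h mean, bars the difference of the means, and the dashed line the median of all genes at 0.04. Acute phase genes lie furthest right in both libraries, muscle genes furthest left in library 2 and G2 and mitosis genes in library 3.

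The 6h libraries also differed from each other. Their log2 difference exceeded 1 in 132 genes with library 3 higher and 65 with library 2 higher, against 86 and 42 at 0h. Saa3, Saa1, Rrad, Trim63 and Nr4a1, whose values are given above, were among those with library 3 higher.

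From 6h to 12h, 0 of 13625 genes passed the threshold (0% called; limma), and 305 were higher (2.24%) and 1251 lower (9.18%) at an unadjusted p under 0.05. The median over all genes was -0.12 in the table's own scale and -0.0035 once median-of-ratios scaling was applied. Il1b was at 1.88 and 2.27 FPKM at 12h, Il6 at 0 and 0.180 FPKM and Il33 at 3.73 and 5.23 FPKM.
Against the mean of the other 4 times, 8 genes (0.0587%) passed at 6h, 3 higher (0.022%) and 5 lower (0.0367%). The comparison shares its 6h libraries with those above. Il1b (log2 difference 1.58, SE 0.12, adjusted p = 0.00109, limma) and Has1 (log2 difference 1.59, SE 0.15, adjusted p = 0.00388, limma) were higher with both 6h libraries above the other 8. Has1 passed the filter on low values through the 6h libraries alone, so its place above the others follows from that filter. Selenbp1, which encodes a selenium-binding protein, was at 151 and 162 FPKM at 0h and 179 and 159 FPKM at 6h and at 15.4 and 15.9 FPKM at 48h, so its higher value at 6h (log2 difference 1.35, SE 0.10, adjusted p = 0.00109, limma) came with low late values. Of the 5 lower genes, Dusp13 and Pdlim3 of muscle had both 6h libraries below all 8 others. Pdlim3, an actinin partner at the Z disc, was at 74.5 and 71.3 FPKM at 0h and 45.3 and 50.3 FPKM at 6h and at 65.2 to 196 FPKM later. Dusp13, a phosphatase, was at 6.60 and 6.23 FPKM at 0h and 4.47 and 5.05 FPKM at 6h and at 5.71 to 18.2 FPKM later. Ankrd1, Myog and Mgmt were lower than the mean of the other times, with high values at 48h. Ankrd1 reached 77.9 and 64.6 FPKM, the myogenic factor Myog 29.5 and 21.0 FPKM and Mgmt, which repairs alkylated guanine, 33.3 and 43.8 FPKM at 48h. In all, 897 genes (6.58%) had both 6h libraries above the other 8 and 178 (1.31%) below them. These counts are in the table's own scale and were not made in other scalings. The median difference over all genes from the other times was 0.08 in that scale and -0.0089 once median-of-ratios scaling was applied. Genes that passed the filter only with a 6h library counted were not left out.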

How the data were processed

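RNA-seq values of 10 skin libraries were used, 2 per time. The authors deposited 1 table of FPKM per gene and library. TopHat2 2.1.1, Cufflinks 2.2.1 and mm10 are named in the submitters' processing notes with no role or order. Annotation, filters and strand setting were not found in the labels. The header names no unit, and FPKM was inferred because Cufflinks is named there and values are not whole. Of 24358 rows, 27 with a date for a symbol were dropped, and all 10 value columns were used. The table numbers libraries 2 and 3 and the labels 1 and 2, so columns were matched to times only.

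Genes reaching 1 FPKM in 2 or more libraries (13625) were fitted on log2(FPKM + 1) with limma 3.58.1 (R 4.3.3), with 1 mean per time over all 10 libraries, an intensity trend and 5 residual degrees of freedom, and p-values are two-sided and Benjamini-Hochberg adjusted over all genes. Differences understate the change of low genes. The script was tested on simulated data. Named genes are all calls, the 12 largest higher and lower differences with an unadjusted p under 0.05, at least 5 FPKM and groups apart, list members with the smallest p, calls of the other comparisons and a fixed set. Genes beyond these, and the TATAAA motif, were chosen after their values were seen. The members, lists and tests were chosen with earlier results of these data known. Motifs were searched on both strands of RefSeq promoter windows. Alternatives were other pseudocounts, filters, scalings, spread estimates, a replicate block and leaving out each library.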

Additional observations from a re-analysis of the deposited data

How the results depend on the processing

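At 6h against 0h the 6 calls became 13 with a pseudocount of 5 (5 higher and 8 lower), 4 with one of 0.1 (4 and 0), 3 without the filter on low values, 2 with a mean of at least 5 FPKM, 5 when rescaled without hair genes (5 and 0), 3 when rescaled without muscle and red blood cell genes (3 and 0), 35 in a fit of the compared times alone, and 1 to 14 when 1 library was left out. Without 6h library 2 the calls were 8 higher and 0 lower, and without 6h library 3 they were 1 higher and 5 lower. Leaving out either 48h library left 1 call, Il1b, and leaving out either 12h or 24h library gave 14. At 12h against 6h the 0 calls became 2 with a pseudocount of 5, 2 without the filter, 1 without muscle and red blood cell genes, 2 without the intensity trend, 1 in the fit of these times alone and 0 to 8 when 1 library was left out, the highest without 6h library 3. At 6h against the mean of the other times the 8 calls became 3 with a pseudocount of 0.1, 13 after quantile normalization and 6 to 12 when 1 library was left out. The cause of these shifts was not tested. With the library number as a replicate block the calls were 99, 5 and 28 in the 3 comparisons. The numbers are not shown to pair the samples: deviations of same-numbered libraries correlated between -0.104 and 0.216, 0.143 between 0h and 6h, over 0.1 in 5 of 10 pairs of times, although at all 5 times each library correlated best with its own number. Genes with both 6h libraries above and below 0h numbered 2937 and 2764 after quantile normalization and 3670 and 1497 when rescaled without muscle and red blood cell genes, both chosen after seeing the data. Of 5135 combinations of the 249 named genes with a setting, 5011 kept their direction and side of the threshold or had no call, 38 lost a call, 86 gained one and 0 called values reversed, while 12 uncalled values in 9 genes changed sign. Of 364 list medians 30 moved beyond the spread of the libraries and 36 changed sign, in 16 of 46 lists, immediate-early genes among them (-0.04 without 6h library 3). Depth limits genes under about 1 FPKM, since FPKM gives no counts.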
